A study of Mus musculus with 6 samples.

Results

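Mouse cells meet retroviruses at several points, and 9 genes of this defence were examined here in induced pluripotent stem cells (iPSCs, fibroblasts reprogrammed to pluripotency). The genes were taken by name, and all 9 were found among the 19938 genes that have a probe set with a single gene symbol. The genes were chosen by name and known function, at a time when differences between these arrays had been seen. Where a gene had several probe sets, the brightest on average was taken, so brightness is not a result. Fv1, Apobec3, Samhd1 and Bst2 act against incoming or budding retroviruses. Trim28, Setdb1, Atf7ip, Zfp57 and Zfp809 belong to the machinery that keeps integrated retroelements and imprinted regions silent.

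Total RNA of 6 cultures was hybridised to Affymetrix mouse gene arrays, 3 labelled primed and 3 labelled naive. Primed cells were grown in medium conditioned by embryonic fibroblasts with basic FGF at 8 ng/ml, on feeder cells or Matrigel. Naive cells were grown in DMEM with 15% fetal bovine serum, non-essential amino acids, glutamine, pyruvate, 1000 U/ml of LIF (leukaemia inhibitory factor) and 55 µM beta-mercaptoethanol. By their titles the primed lines came from adult dermal fibroblasts and the naive lines from embryonic fibroblasts, while another label names embryonic fibroblasts for all 6. The labels name no mouse strain, no sex, no number of lines and no reprogramming method. Culture state, fibroblast origin and any difference of strain or sex between the lines cannot be told apart by the titles. What was repeated between the 3 biological replicates is not stated, so the p-values may measure technical spread only.

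All values are log2 values made by robust multi-array average (RMA), and every difference is primed minus naive on that scale. Having 3 arrays in each group limits the precision. Within a group, the correlation across genes was 0.998 to 0.999. The background of an array was the value that 95% of 1190 odorant and vomeronasal receptor genes stayed under, between 6.96 and 7.03. All 9 genes lay above it on every array. Of 8 genes that mark pluripotent cells, 0 lay in background, 6 were lower in primed cells and 0 higher, led by Dppa4 (-1.74), Pou5f1 (-1.06), Tdgf1 (-0.80) and Sox2 (-0.52). Over all genes, 22.7% were called lower and 21.8% higher. State markers went partly with and partly against the labels. Of 13 naive-state markers, 8 were lower in primed cells, 2 higher and 3 not called, with Dppa2 (-3.72), Esrrb (2.98), Dppa3 (-2.81, in background in primed cells) and Nr0b1 (2.29) differing most. Of 12 primed-state markers, 6 were higher in primed cells, 3 lower and 3 not called, with Eomes (-2.20), Car14 (2.11), Fgf5 (-1.71) and Lef1 (-1.38) differing most. Values for a marker of each list that went against the labels follow. Fgf5, a marker of the primed state, averaged 8.90 ± 0.03 in primed and 10.61 ± 0.09 in naive cells (SD, n = 3 each). Esrrb, a factor of the naive state, averaged 11.24 ± 0.02 in primed and 8.25 ± 0.11 in naive cells (SD, n = 3 each). The naive marker Zfp42 lay in background on all 6 arrays.

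Fv1 descends from the gag gene of an endogenous retrovirus, and its protein binds the capsid of incoming murine leukaemia virus. It is the classical example of a restriction gene whose alleles differ between mouse strains. Trim28 is a corepressor that zinc finger proteins with a KRAB domain bring to DNA. It recruits Setdb1, which methylates lysine 9 of histone H3, and Atf7ip is a partner that stabilises Setdb1. Zfp809 leads this complex to a sequence of murine leukaemia proviruses, and Zfp57 leads it to the methylated copy of imprinted regions. Embryonic stem cells are known for strong silencing of retroviruses by this route.

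Upstream windows of the 4 restriction genes were read from RefSeq (GRCm38.p6), 250 bases before to 50 after each annotated start. They are shown because 3 of these genes are known to respond to interferon, and because Fv1 lies next to another gene that moved with it. In the Fv1 window, chr4:147868729-147869028 on the plus strand, capitals mark the bases from the annotated start on. In the others they mark matches to the interferon-stimulated response element (GAAA, any 2 bases, GAAA) or the gamma-activated site (TTCNNNGAA), on both strands. The windows are chr15:79892158-79892457 (plus) and chr15:79894773-79895072 (plus) for the first and second start of Apobec3, chr2:157135047-157135346 (minus) for Samhd1 and chr8:71537423-71537722 (minus) for Bst2.
Fv1: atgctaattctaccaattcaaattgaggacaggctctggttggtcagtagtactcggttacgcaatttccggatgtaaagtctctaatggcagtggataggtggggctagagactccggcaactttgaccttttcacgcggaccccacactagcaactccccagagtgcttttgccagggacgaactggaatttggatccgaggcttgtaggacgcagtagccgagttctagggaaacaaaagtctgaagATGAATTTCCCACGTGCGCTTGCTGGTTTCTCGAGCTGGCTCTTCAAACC
Apobec3, first start: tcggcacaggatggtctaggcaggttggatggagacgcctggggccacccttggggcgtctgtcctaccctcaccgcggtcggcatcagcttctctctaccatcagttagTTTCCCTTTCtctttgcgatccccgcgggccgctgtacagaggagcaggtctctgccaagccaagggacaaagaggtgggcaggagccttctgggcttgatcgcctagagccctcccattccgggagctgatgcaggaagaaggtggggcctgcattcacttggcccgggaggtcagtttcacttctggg
Apobec3, second start: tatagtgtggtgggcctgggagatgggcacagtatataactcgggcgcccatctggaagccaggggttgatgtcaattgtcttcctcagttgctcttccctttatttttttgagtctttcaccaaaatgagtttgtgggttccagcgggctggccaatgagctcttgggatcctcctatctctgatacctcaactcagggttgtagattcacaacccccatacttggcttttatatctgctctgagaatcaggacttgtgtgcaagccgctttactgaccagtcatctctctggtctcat
Samhd1: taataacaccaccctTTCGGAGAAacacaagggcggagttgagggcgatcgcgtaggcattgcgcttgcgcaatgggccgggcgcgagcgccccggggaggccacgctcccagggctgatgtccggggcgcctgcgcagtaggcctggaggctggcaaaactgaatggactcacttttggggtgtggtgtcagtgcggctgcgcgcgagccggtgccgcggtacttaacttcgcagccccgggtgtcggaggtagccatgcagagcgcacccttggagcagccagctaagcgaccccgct
Bst2: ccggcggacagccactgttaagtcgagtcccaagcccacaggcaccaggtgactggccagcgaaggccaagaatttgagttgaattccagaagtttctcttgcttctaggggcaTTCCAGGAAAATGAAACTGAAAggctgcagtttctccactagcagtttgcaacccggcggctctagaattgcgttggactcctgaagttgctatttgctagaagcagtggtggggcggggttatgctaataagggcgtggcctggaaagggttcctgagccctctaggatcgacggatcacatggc

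The response element was found in the windows of Bst2 and Apobec3, and in 3.44% of all 32851 windows. Bst2 holds it in 2 places that overlap each other, at -130 to -121 and -124 to -115 from the start, and a gamma-activated site at -136 to -128 overlaps the first of them. Apobec3 holds it at -140 to -131 of its first start. A gamma-activated site was found for Samhd1 at -235 to -227, and in 8.30% of all windows. Neither motif was found in the windows of Fv1, Trim28, Setdb1, Atf7ip, Zfp57 or Zfp809. A match is a match of letters only and shows no binding.

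Fv1 showed by far the largest difference of the 9 genes. Its values were 11.49, 11.58 and 11.41 on the primed arrays, against 7.96, 8.11 and 8.09 on the naive arrays. The groups lay far apart, and the lowest primed value exceeded the highest naive value by 3.30. The log2 difference was 3.44 (SE 0.06, 95% interval 3.30 to 3.58), or 10.9-fold on the RMA scale. Only 3 of the 19938 genes had a larger rise. This difference was known when the genes were chosen, so it is given as a description and without a test. In naive cells Fv1 was still above background, by 0.95 on the array with the smallest margin.

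Fv1 is annotated at chr4:147868979-147870358 on the plus strand. The annotation is 1380 bases long, a multiple of 3, and opens with a start codon (ATG, the first capitals of the printed window), so it covers coding sequence only and its true transcription start is not given there. On the minus strand, the annotated start of Miip lies 259 bases away, so that the genes point away from each other and the printed lower-case stretch lies between them. Miip encodes a protein that inhibits cell migration and invasion.

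Miip was also higher in primed cells. Its values were 11.23, 11.25 and 11.12 on the primed arrays, against 9.06, 9.13 and 9.27 on the naive arrays, without overlap. The difference was 2.05 (SE 0.07, limma adjusted p = 1.1e-09 over all genes). The gene on the other side of Fv1, the mitofusin gene Mfn2, went the other way by a small step (-0.34, SE 0.06, limma adjusted p = 0.00041). The other 4 of the nearest measured genes differed by -0.31 to 0.18, so that the large rise covered Fv1 and Miip and no further gene among the 3 nearest on each side.

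**Figure D1:**
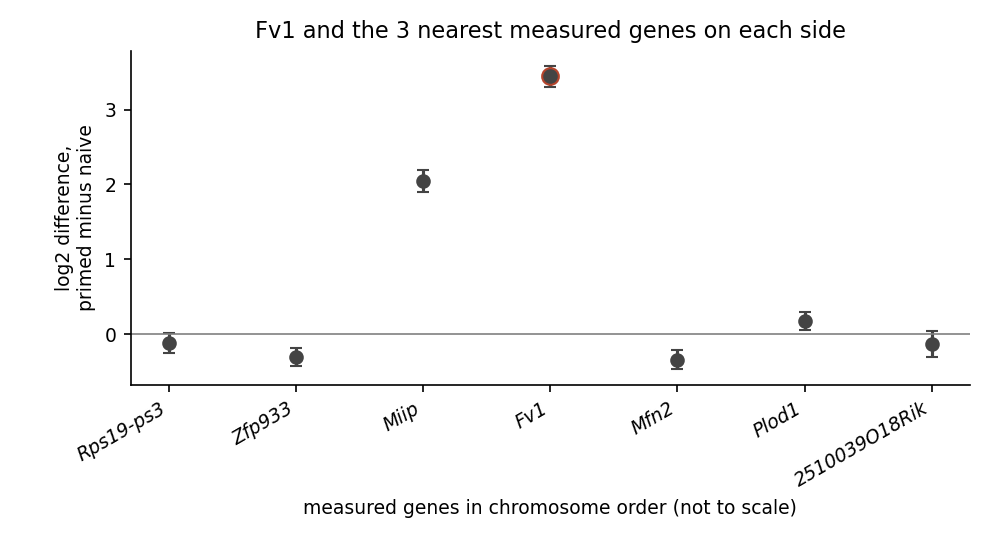
Log2 difference, primed minus naive, of Fv1 (large point) and of the nearest 3 measured genes on each side, in chromosome order and not to scale. Points are limma estimates from 3 primed and 3 naive arrays and bars are 95% intervals; Fv1 at 3.44 and Miip at 2.05 stand above the other 5 genes, which lie between -0.34 and 0.18.

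Head-to-head neighbours were then counted over the whole array, a count made after the value of Miip was seen. There were 565 measured pairs on opposite strands with annotated starts within 1000 bases. In 14 of them at least 1 gene was 2-fold or more higher in primed cells and past the threshold. The partner was also called higher in 5 of the 14, Fv1 with Miip among them, called lower in 3 and not called in 6. Over all genes, 21.8% were called higher and 22.7% lower. Fv1 with Miip was the only pair of the 565 in which both genes were at least 2-fold higher. The values of this pair led to the count, so its place there is a description only.

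The genes whose 6 array values, each centred on its mean, lay closest to those of Fv1 were Gstm5, Rarb and Kdm5d, at Euclidean distances of 0.30, 0.39 and 0.44. Gstm5 differed by 3.43, Rarb by 3.15 and Kdm5d by 3.25. Gstm5 and Kdm5d lay in background on the naive arrays, unlike Fv1. Kdm5d is a gene of the Y chromosome, and the part of sex in these differences was not tested. With 2 groups of 3 arrays, such closeness mostly reflects a difference of like size.

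Across the 9 genes, 2 were higher in primed cells, 5 were lower and 2 did not pass a limma adjusted p of 0.05 over all genes. Without Fv1, whose difference was known at the choice, 1 of the other 8 was higher and 5 were lower. The background is wide, since 44.5% of all genes were called, 21.8% higher and 22.7% lower (4347 and 4529 genes). With each array centred on its median, 3439 genes were called higher and 6325 lower, and of the 9 genes 1 was higher and 6 lower. Of the 14573 genes not in background on all arrays, 59.3% were called, 29% higher and 30.3% lower, beside 7 of the 9. The median difference of the 9 genes was -0.20, against 0.00 over all genes. Primed and naive values were fully separate for 7 of the 9 genes, 2 higher and 5 lower. The same held for 52.9% of all genes, 25.9% higher and 27% lower. Apart from Fv1, every difference was under 2-fold, and 3.55% of all genes were called with at least that size.

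**Figure D2:**
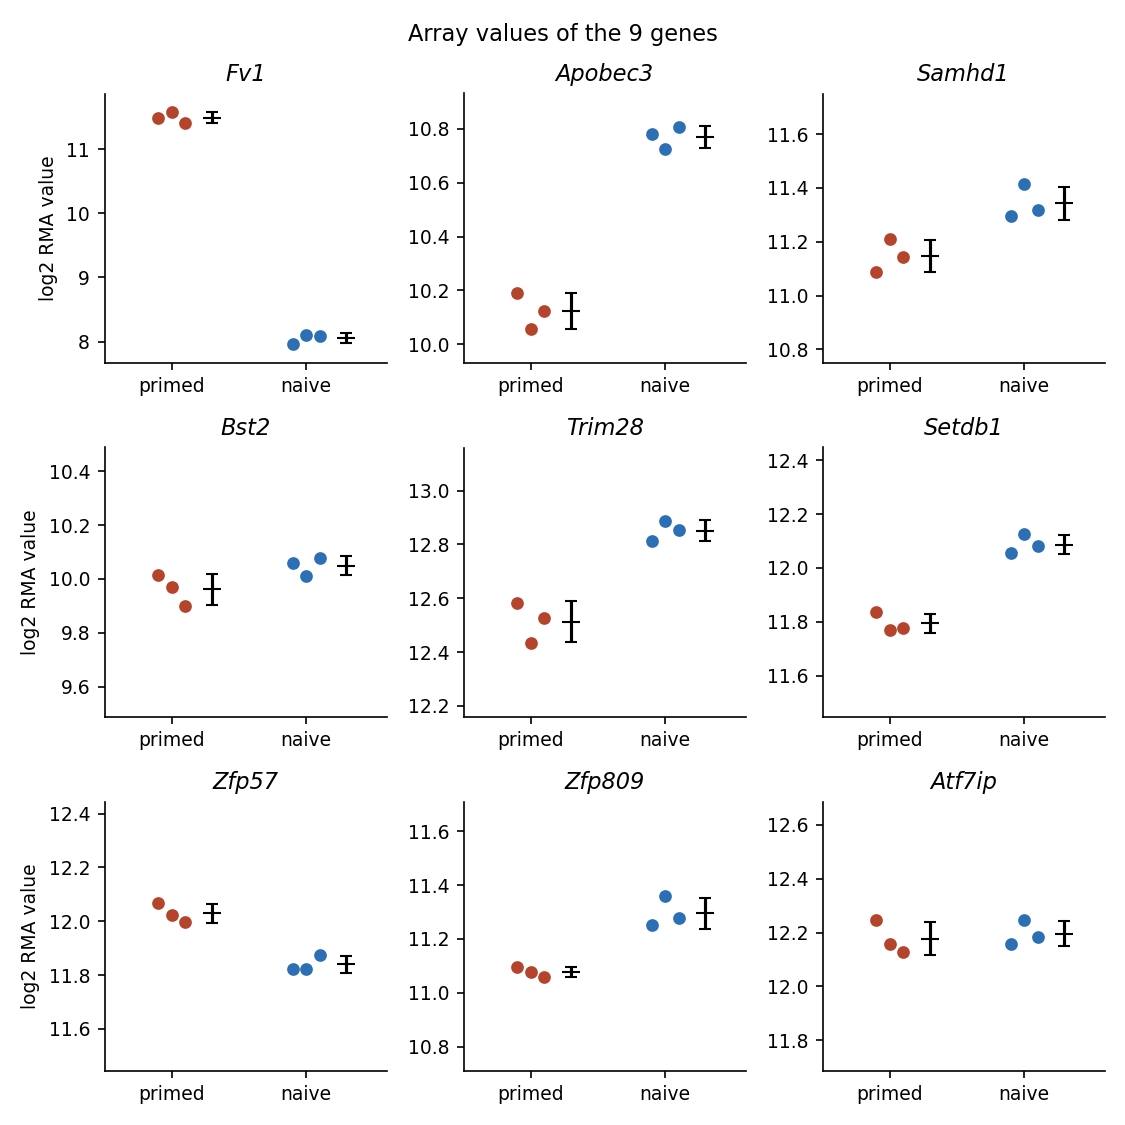
Log2 RMA values of the 9 genes on the 3 primed (left) and 3 naive (right) arrays. Points are arrays and bars are the mean with the SD; the vertical axis spans 1 unit in every panel except that of Fv1, where it spans more, and the groups overlap only for Bst2 and Atf7ip.

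Apobec3 encodes a cytidine deaminase that restricts retroviruses and lies at chr15:79892058-79918218. Its brighter probe set read 10.19, 10.06 and 10.12 on the primed arrays, against 10.78, 10.73 and 10.81 on the naive arrays. All primed values were lower than all naive values. The difference was -0.65 (SE 0.06, limma adjusted p = 2.3e-06), the largest after Fv1, and 8.99% of all genes had a larger one in either direction. The dimmer probe set of Apobec3 gave the opposite direction.

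That probe set read 7.76, 7.88 and 7.87 on the primed arrays, against 7.67, 7.60 and 7.62 on the naive arrays. The difference was 0.20 (SE 0.05, adjusted p = 0.010 in limma over all 21789 probe sets, of which 43.7% were called), again without overlap. The platform annotation ties the brighter probe set to the RefSeq mRNAs of Apobec3 and the dimmer one to cDNA clones alone, one of which the brighter set shares. The direction of the Apobec3 change holds for the brighter probe set only. Apobec3 alleles are known to differ between strains in expression level and in splicing, and the part of either in these values was not tested. The genes closest in pattern to the brighter probe set, Lgals9, Mrpl20 and Trnt1, differed by -0.67, -0.68 and -0.67.

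Samhd1, at chr2:157097534-157135096, encodes a phosphohydrolase that depletes the nucleotides needed for reverse transcription. It read 11.09, 11.21 and 11.14 on the primed arrays, against 11.30, 11.41 and 11.32 on the naive arrays. The groups came within 0.09 of each other without overlapping. The difference of -0.20 (SE 0.06, limma adjusted p = 0.015) did not pass without naive replicate 2 (-0.16, adjusted p = 0.061) or after quantile normalization (-0.12, adjusted p = 0.13).

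Bst2 encodes tetherin, which holds budding virus particles at the cell surface, and lies at chr8:71534255-71537472. It read 10.02, 9.97 and 9.90 on the primed arrays, against 10.06, 10.01 and 10.08 on the naive arrays. The groups touched, with the highest primed value above the lowest naive value. The difference was -0.09 (SE 0.05, limma adjusted p = 0.22), with a 95% interval of -0.21 to 0.03. With each array centred on its median it was -0.16 and passed (adjusted p = 0.023).

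Apobec3, Samhd1 and Bst2, the 3 restriction genes known to respond to interferon, had negative differences in their brightest probe sets. That of Bst2 was not called, and the call of Samhd1 did not hold under every alternative. The dimmer probe set of Apobec3 was positive (0.20). The 3 genes were read beside the interferon pathway and other host factors. Among 18 measured genes of interferon signalling, 5 were higher in primed cells, 7 lower and 6 not called, with a median difference of -0.01. That is 27.8% higher and 38.9% lower, against 21.8% and 22.7% of all genes. Cgas, Ifih1 and Tlr3 lay in background on all arrays, the last 2 of them among those called lower. With all such genes left out of the fit, 6 of the list were higher and 5 lower. Of all genes kept in that fit, 29% were higher and 30.3% lower. Irf1, a transcription factor induced by interferon, averaged 8.83 ± 0.02 in primed and 10.77 ± 0.04 in naive cells (SD, n = 3 each), a difference of -1.94. Ddx58, the sensor of viral RNA called RIG-I, differed by -0.93 and Tlr3 by -0.73, the last with all 6 arrays in background. Stat2 and Irf9, which carry the interferon signal to the nucleus, were higher in primed cells by 0.71 and 0.35.

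Of 28 other measured antiviral host factors, 12 were lower in primed cells, 3 higher and 13 not called, with a median of -0.14. That is 42.9% lower and 10.7% higher, against 22.7% and 21.8% of all genes. The largest differences were those of Trim25 (-3.56, in background in primed cells), Ifitm1 (-2.92), Ifitm3 (-2.55) and Serinc5 (-1.38). Serinc5 encodes a membrane protein that lowers the infectivity of virus particles. Its values were 10.04, 9.87 and 9.88 on the primed arrays, against 11.26, 11.35 and 11.31 on the naive arrays. The interferon-inducible genes Mx1, Mx2 and Rsad2 lay in background on every array.

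Cell surface receptors of murine leukaemia viruses were all measured and all passed, 3 higher and 1 lower in primed cells. Of the genes not in background on all arrays, 59.3% passed, 29% higher and 30.3% lower. Slc7a1, an arginine transporter that ecotropic viruses use, read 10.30, 9.94 and 10.12 on the primed arrays, against 8.90, 9.17 and 8.96 on the naive arrays. Its difference was 1.11 (SE 0.09, limma adjusted p = 1.9e-06), without overlap. Slc20a1, a phosphate transporter, was lower in primed cells by -0.59. Its relative Slc20a2, the receptor of amphotropic viruses, was higher by 0.20 and Xpr1, that of xenotropic and polytropic viruses, by 0.26.

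Trim28, at chr7:13024152-13031032, read 12.58, 12.43 and 12.53 on the primed arrays, against 12.81, 12.89 and 12.85 on the naive arrays. All primed values were lower, by at least 0.23. The difference was -0.34 (SE 0.06, limma adjusted p = 0.00043). Setdb1, at chr3:95323525-95357202, read 11.84, 11.77 and 11.78 on the primed arrays, against 12.06, 12.12 and 12.08 on the naive arrays. It was thus lower by a similar step without overlap, -0.29 (SE 0.05, limma adjusted p = 0.00059). Both kept their calls when any single array was left out, at -0.37 to -0.30 for Trim28 and -0.31 to -0.27 for Setdb1.

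Atf7ip, at chr6:136518789-136610850, did not follow Setdb1 in its brighter probe set. That set read 12.25, 12.16 and 12.13 on the primed arrays, against 12.16, 12.25 and 12.18 on the naive arrays, with overlapping groups. The difference was -0.02 (SE 0.06, limma adjusted p = 0.83, 95% interval -0.14 to 0.10). A dimmer probe set read 8.98, 8.69 and 8.89 on the primed arrays, against 8.54, 8.65 and 8.62 on the naive arrays, and was higher by 0.25 (SE 0.07, limma adjusted p = 0.018 over all probe sets). The probe sets of Atf7ip thus differ in their call, and the annotation ties the dimmer one to a single predicted transcript, which the brighter set lists as well.

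The 2 zinc finger proteins that guide Trim28 went in opposite directions. Zfp809, at chr9:22225667-22254117, read 11.09, 11.08 and 11.06 on the primed arrays, against 11.25, 11.36 and 11.28 on the naive arrays. It was lower in primed cells without overlap, by -0.22 (SE 0.05, limma adjusted p = 0.0050). Zfp57, at chr17:37001163-37010729, read 12.07, 12.02 and 12.00 on the primed arrays, against 11.82, 11.82 and 11.88 on the naive arrays. It was higher without overlap, by 0.19 (SE 0.05, limma adjusted p = 0.0096), and this call ended when each array was centred on its median (0.12, adjusted p = 0.063).

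**Figure D3:**
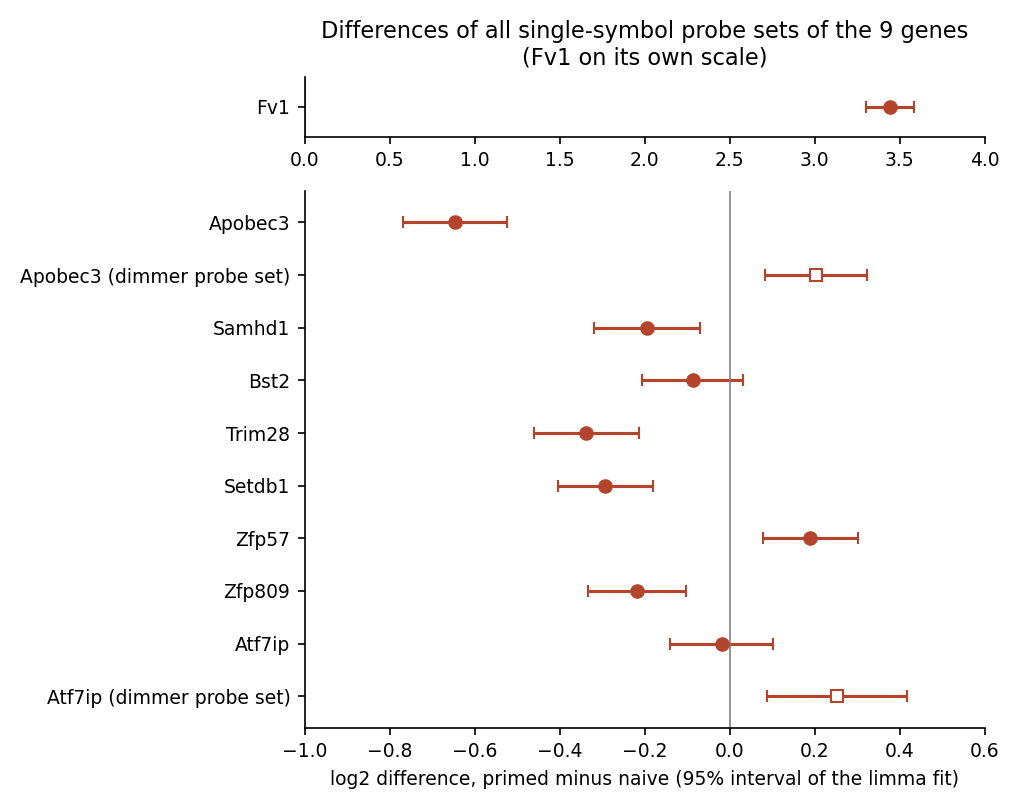
Log2 difference, primed minus naive, of all 11 single-symbol probe sets of the 9 genes, with 95% intervals from a limma fit over all probe sets (Fv1 in the upper panel on its own scale, the other genes below). Filled circles are the brightest probe set of a gene and open squares the dimmer one; the dimmer sets of Apobec3 and Atf7ip lie on the positive side at 0.20 and 0.25.

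Neighbours of the silencing genes moved in both directions. The nearest 3 measured genes on each side of Trim28 differed by -0.71 to -0.04, those of Setdb1 by -0.43 to 0.26, those of Zfp57 by -0.09 to 0.57 and those of Zfp809 by -0.04 to 0.89. Those with a size of at least 0.5 were Zbtb45 beside Trim28 (-0.71), Gabbr1 near Zfp57 (0.57) and Zfp810, another zinc finger gene, near Zfp809 (0.89). Near Atf7ip it was Plbd1 (-0.95, in background in primed cells) and near Apobec3 it was Pdgfb (-0.74). No 2 of the 9 genes share a chromosome.

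Other parts of the silencing machinery were mostly lower in primed cells. Of 39 measured partners, 25 were lower, 5 higher and 9 not called, with a median of -0.20, against 0.00 over all genes. That is 64.1% lower and 12.8% higher, against 22.7% and 21.8% of all genes. Of the genes not in background on all arrays, 30.3% were lower and 29% higher. With each array centred on its median, 27 of the partners were lower and 3 higher, and after quantile normalization 20 and 6. Dnmt3l, which assists the enzymes of de novo DNA methylation, differed most at -3.19 and lay in background in primed cells. Dnmt3a, which it stimulates, was higher in primed cells by 0.82, Dnmt3b lower by -0.50, and Dnmt1, which maintains methylation, did not pass (0.01, limma adjusted p = 0.91).

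The HUSH complex silences retroelements together with Setdb1, and 2 of its subunits and its partner Morc2a were measured. Tasor read 9.87, 9.73 and 9.81 on the primed arrays, against 10.40, 10.60 and 10.48 on the naive arrays. Its difference was -0.69 (SE 0.06, limma adjusted p = 4.5e-06). Pphln1 was lower by -0.54 and Morc2a by -0.56, so that all 3 were lower in primed cells without overlap. Daxx and Atrx, which place histone H3.3 at silent repeats, differed by -0.70 and -0.25, and Resf1, a partner of Setdb1 at retroelements, by -0.58. The heterochromatin protein gene Cbx5 did not pass (-0.08, limma adjusted p = 0.30).

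The products that this machinery holds down were read where the array has genes for them. Of 16 measured genes that are tied to the endogenous retrovirus MERV-L or known to rise when Trim28 or Setdb1 is lost, 0 were higher in primed cells and 5 lower, with 11 not called. The share lower was 31.25%, against 22.7% of all genes, while 21.8% of all genes were higher. Of the 16, 12 lay in background on all arrays. Their mean level was 6.03 to 6.16 on the primed arrays and 6.25 to 6.35 on the naive arrays. Eif1a was the only one of the 5 called genes above background in both groups (-0.63), while Sycp3 (-1.67) was in background on all primed arrays. Eif1a averaged 10.26 in primed and 10.90 in naive cells, and whether this machinery holds it down in these cells was not tested. Tuba3b (-0.26) and Tcstv3 (-0.16) lay in background on all arrays. Retroelement transcripts themselves were not analysed here.

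Imprinted genes, whose methylated copies Zfp57 and Trim28 protect at many loci, moved both ways by larger steps. Of 21 measured, 14 were lower in primed cells, 4 higher and 3 not called, with a median of -0.46. In shares, 66.67% were lower and 19.05% higher, against 22.7% and 21.8% of all genes. Among genes not in background on all arrays, the shares were 30.3% lower and 29% higher. Peg3 read 11.11, 11.11 and 11.10 on the primed arrays, against 12.24, 12.39 and 12.33 on the naive arrays, without overlap and with a difference of -1.21 (SE 0.05, limma adjusted p = 1.6e-08). Slc38a4 (-6.13), Grb10 (4.68), Peg10 (-2.94) and Rian (-1.61) differed most. Several of the 21 share a cluster, such as Dlk1, Meg3 and Rian, so the counts are not those of independent loci, and not each locus is known to depend on Zfp57.

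**Figure D4:**
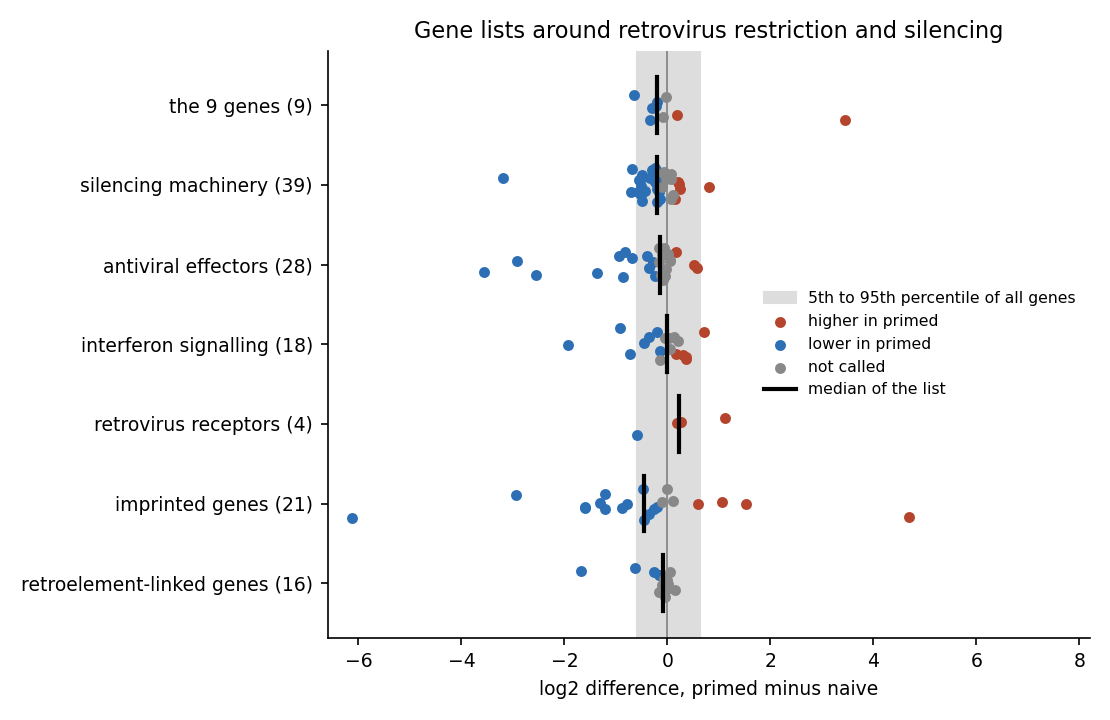
Log2 differences, primed minus naive, of the 9 genes and of 6 related lists (measured genes in parentheses). Each point is a gene, coloured by its call at a limma adjusted p of 0.05 over all genes, black bars are list medians and the grey band spans -0.58 to 0.64, the 5th to 95th percentile of all genes.

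Markers of other cells were read on the same arrays. Of 23 fibroblast markers, 10 were lower in primed cells, 4 higher and 9 not called, and 5 lay in background on all arrays. Called shares were 43.5% lower and 17.4% higher, against 22.7% and 21.8% of all genes. Among genes not in background on all arrays, a set without those 5, the shares were 30.3% and 29%. Their mean level was 8.64 to 8.65 on the primed arrays and 8.73 to 8.75 on the naive arrays. The largest differences were those of Acta2 (-1.23), Tagln (-1.09), Col1a1 (-0.76) and, in the other direction, Dcn (2.89). Of 11 markers of blood cells, in which restriction genes are strongly expressed, 0 were higher in primed cells, 2 lower and 9 not called. The share lower was 18.2%, against 22.7% of all genes, while 21.8% of all genes were higher. In background on all arrays lay 8 of the 11, among them Ptprc and Adgre1 and both called genes, Aif1 (-0.53) and Csf1r (-0.16). Itgam (0.16) and Cd14 (0.14), which were not called, also lay there. Their mean level was 6.81 to 6.83 on the primed arrays and 6.83 to 6.95 on the naive arrays. In bulk RNA, fewer cells of a type and less RNA per cell cannot be told apart, and the part of fibroblasts in these differences was not tested.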

How the data were processed

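The authors deposited 1 table of log2 values for 35556 probe sets on 6 arrays, made with RMA in Partek 6.6, per the submitters' processing notes. The RMA options and genome build were not given in the sources used here. RMA compresses differences of dim genes. The platform annotation gave 1 symbol to 21789 probe sets, of which 21698 matched RefSeq (GRCm38.p6) by gene ID, several symbols to 1621 (not used) and none to 12146.

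Primed and naive arrays were tested against each other by limma 3.58.1 (R 4.3.3), using lmFit and eBayes, two-sided and with no covariate or further normalization. P-values were adjusted by Benjamini-Hochberg over 19938 genes, at a threshold of 0.05. The code was tested on simulated data. Figures were drawn with Python 3.11.15.

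Members and lists were chosen with earlier results of these data known. Named are the 9 genes with every probe set, in each list the 4 genes with the largest difference and some genes fixed by name, the 3 genes of closest pattern, and neighbours differing by at least 0.5. Other genes named to describe a list were picked after their values were seen. Promoter windows were also searched on both strands for 8 other motifs (GC, CCAAT and TATA boxes, the Zfp57 hexamer, the YY1 and ETS cores, the cAMP response element and the NRF1 palindrome), which are not reported further. Alternatives were other scalings, a filter on dim genes, other probe set rules, an intensity trend, array weights, a replicate block, other thresholds and leaving out each array.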

Additional observations from a re-analysis of the deposited data

How the results depend on the processing

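The direction of Fv1, Apobec3, Trim28, Setdb1, Zfp809, Samhd1, Bst2 and Zfp57 held under every alternative that kept the brightest probe set. There Fv1 ranged from 3.37 to 3.48, Apobec3 from -0.72 to -0.61, Trim28 from -0.41 to -0.24 and Setdb1 from -0.36 to -0.22. Apobec3 turned to 0.20 with the second brightest probe set and was -0.22 with the mean over probe sets (limma adjusted p = 0.0032). Atf7ip, not called at first, changed sign to 0.0705 after quantile normalization, 0.12 with the mean over probe sets, 0.25 with the second brightest set, 0.0063 without primed replicate 3 and 0.0068 without naive replicate 2 (-0.053 to 0.0068 over all 6 arrays left out in turn). With each array centred on its median, which shifted the median of all genes to -0.07, 1 of the 9 genes was called higher and 6 lower, and 3 silencing genes were called higher. The calls over all genes were then 3439 higher and 6325 lower, against 4347 and 4529, or 35.2% higher in place of 49.0%. With the second brightest probe set 4 of the 9 genes were higher.

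Requiring at least 2-fold left 1 of the 9 genes higher and 0 lower, with 340 genes higher and 367 lower in all. Counts of higher and lower genes at that size were 0 and 1 for the silencing machinery, 0 and 4 for other host factors, 0 and 1 for interferon signalling and 1 and 0 for receptors. For imprinted genes they were 3 and 7. Leaving out each array gave 3926 to 4169 genes higher and 4007 to 4455 lower, 2 of the 9 genes higher and 4 to 5 lower. Replicate numbers did not pair the arrays (correlations of deviations -0.11, 0.00 and -0.02). With the replicate block, 4172 genes were higher and 4344 lower, with 2 and 5 of the 9. At the 90th percentile of receptor genes all 9 genes also lay above background. Leaving out genes in background, an alternative chosen after seeing the data, gave 2 and 5.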
